A study of Homo sapiens with 11 samples.

Results

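The regions described here are all 21500 peaks of acetylated lysine 27 of histone H3 (H3K27ac) in SK-N-MC cells. SK-N-MC is an Ewing sarcoma cell line of human origin with the EWSR1::FLI1 fusion gene. The regions were taken as the whole deposited H3K27ac peak list, out of 134925 peaks in 9 lists. Each peak was placed at a gene end, meaning that it came within 1 kb of either annotated end of a protein-coding gene (GRCh38), or was called distal. Chromatin immunoprecipitation followed by sequencing (ChIP-seq) had been used to map the NuRD complex in SK-N-MC cells whose genotype is labelled wildtype, in 11 samples of which 2 were inputs without antibody. The other 8 lists served as annotation: H3K4me3, H3K4me1 and H3K27me3, the NuRD subunits CHD4 (in a sample labelled for Flag-tagged CHD4 and pulled down through the tag), HDAC2, MTA2 and RBBP4, and FLI1. Each target had 1 list and no replicate, so no spread between cultures and no test between groups was possible. The 95% intervals given here are Wilson intervals for shares and order-statistic intervals for medians. They cover counting error over peaks only, and neighbouring peaks are not independent. The lists hold no read counts, so depth is unknown.

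H3K27ac is placed by the acetyltransferases EP300 and CREBBP and removed by histone deacetylases, among them HDAC1 and HDAC2 within NuRD. It is found at active promoters, where it sits beside H3K4me3, and at active enhancers, where it sits beside H3K4me1, and it cannot share a lysine with the Polycomb mark H3K27me3. In Ewing sarcoma, EWSR1::FLI1 is known to create enhancers with H3K27ac at GGAA repeats far from genes.

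Among the 10 gene-end peaks of greatest height, 4 lay at start sites for which the 250 bases before the start fell inside no annotated gene and could be shown as promoter sequence. Height is the authors' fold enrichment at the summit over local background. The sequences, from RefSeq (GRCh38.p14), run 5′ to 3′ on the gene's strand. Capitals mark the letters GGGCGG (the GC box bound by SP and KLF factors), CCAAT (NFY), CCGGAAG (ETS factors), TGACGTCA (CREB and ATF factors), the NRF1 motif (GCGCA and GCGC with any base between) and TATAAA, each searched on both strands, so that GGGCGG can stand as CCGCCC and CCAAT as ATTGG. They are shown for their CpG-rich letters, a composition that 83.1% of the windows under H3K27ac shared, against 48.1% of those not under it. A window counts as under H3K27ac when it shares at least 1 bp with a peak. The RCOR1 peak ends at 102592414 and the PCGF3 peak begins at 705746. Most of the RCOR1 and PCGF3 windows, with all their capitals, thus lies outside the peak. The CEBPG and VAX1 windows lie inside theirs.
RCOR1, chr14:102592399-102592648, plus strand: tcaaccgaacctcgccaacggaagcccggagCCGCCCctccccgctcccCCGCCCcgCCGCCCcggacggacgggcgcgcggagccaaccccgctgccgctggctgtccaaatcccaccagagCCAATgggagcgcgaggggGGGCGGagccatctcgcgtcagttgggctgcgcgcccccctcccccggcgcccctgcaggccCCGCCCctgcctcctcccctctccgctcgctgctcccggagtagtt
PCGF3, chr4:705582-705831, plus strand: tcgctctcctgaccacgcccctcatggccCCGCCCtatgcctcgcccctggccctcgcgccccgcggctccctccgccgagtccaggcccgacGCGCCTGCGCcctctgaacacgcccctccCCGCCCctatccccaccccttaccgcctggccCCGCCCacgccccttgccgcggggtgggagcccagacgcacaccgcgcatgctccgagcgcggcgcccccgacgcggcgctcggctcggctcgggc
CEBPG, chr19:33373459-33373708, plus strand: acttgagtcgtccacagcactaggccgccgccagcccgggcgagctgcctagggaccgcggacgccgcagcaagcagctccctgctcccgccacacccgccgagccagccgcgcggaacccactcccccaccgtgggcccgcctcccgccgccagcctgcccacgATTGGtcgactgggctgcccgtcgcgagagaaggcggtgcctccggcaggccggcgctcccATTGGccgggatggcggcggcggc
VAX1, chr10:117138271-117138520, minus strand: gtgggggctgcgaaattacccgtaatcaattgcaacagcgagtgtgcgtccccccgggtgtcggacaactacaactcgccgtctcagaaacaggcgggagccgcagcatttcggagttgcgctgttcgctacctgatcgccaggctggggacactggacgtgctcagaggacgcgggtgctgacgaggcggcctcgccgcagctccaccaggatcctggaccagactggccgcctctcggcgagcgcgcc
The RCOR1 window had 5 GC boxes and 1 CCAAT, the PCGF3 window 3 GC boxes and 1 NRF1 match, and the CEBPG window 2 CCAAT matches. The VAX1 window had none of the letters searched. GC content was 76.4% for RCOR1, 78.8% for PCGF3, 76.0% for CEBPG and 65.2% for VAX1.

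Peaks at gene ends were the smaller group and the taller one. Of the 21500 peaks, 8729 (40.6%, interval 39.9 to 41.3%) lay at gene ends and 12771 (59.4%) were distal. Median height was 8.54-fold at gene ends (interval 8.45 to 8.65, quartiles 6.54 and 11.6) and 6.85-fold at distal peaks (interval 6.81 to 6.91, quartiles 5.56 and 9.05). Median width was 591 bp at gene ends (interval 581 to 602) and 602 bp at distal peaks (interval 592 to 612), so these intervals overlapped. With only peaks whose −log10 p reached 15, median width was 617 bp at gene ends (interval 605 to 627) and 727 bp at distal peaks (interval 714 to 738), which did not overlap. With peaks closer than 1 kb merged, median widths became 926 bp at gene ends and 949 bp at distal peaks. The whole list ran in height from 2.37- to 35.3-fold, and in width from 261 to 13591 bp, apart from 1 peak of 12 bp, and it covered 18.5 Mb.

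Most gene-end peaks belonged to starts of genes. Of the 8729, 7094 (81.3%) lay within 1 kb of an annotated start site, 318 (3.64%) lay at a 3′ end only, 1289 lay at genes whose strand was not in the table used, and the rest lay near an alternative start. A start of a gene without strand may still lie near some of the 318. Peaks at 3′ ends and at starts overlapped different marks. H3K4me3 overlapped 39.0% of 3′-end peaks (interval 33.8 to 44.5%) and 94.8% of peaks at starts (94.2 to 95.3%). H3K4me1 overlapped 53.8% of 3′-end peaks and 5.02% of peaks at starts. Median height was 7.31-fold at 3′ ends and 8.65-fold at starts.

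Distal peaks were spread over introns and intergenic sequence. A protein-coding gene overlapped 6540 of the 12771 (51.2%, interval 50.3 to 52.1%), with a median height of 6.93-fold inside genes and 6.80-fold outside. The nearest end of a protein-coding gene was within 10 kb of the summit for 26.6%, 10 to 50 kb away for 36.8%, 50 to 100 kb for 13.9%, 100 to 500 kb for 19.3% and farther for 3.25%. A further 1040 distal peaks (8.14%) came within 1 kb of an alternative start site, and 1603 (12.6%) within 1 kb of an end of a non-coding gene. Distal thus means away from the annotated ends of coding genes, not away from every start.

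The positions of summits around starts were uneven. The promoter table gave 22054 start sites of 15841 protein-coding genes, and 8465 of these sites had an H3K27ac summit within 1 kb. The summit was downstream of the start at 65.9% of them (interval 64.9 to 66.9%), with a median offset of +170 bp. The interval from 0 to 250 bp downstream held 42.5% of these summits, and that from 250 bp upstream to the start held 13.5%. An H3K27ac peak covered 30.8% of all start sites at 200 bp downstream, 19.9% at 400 bp upstream and 19.7% at the start itself. Among the 8777 start sites with a peak within 1 kb, the start base itself lay inside the peak in 49.5%.

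**Figure D1:**
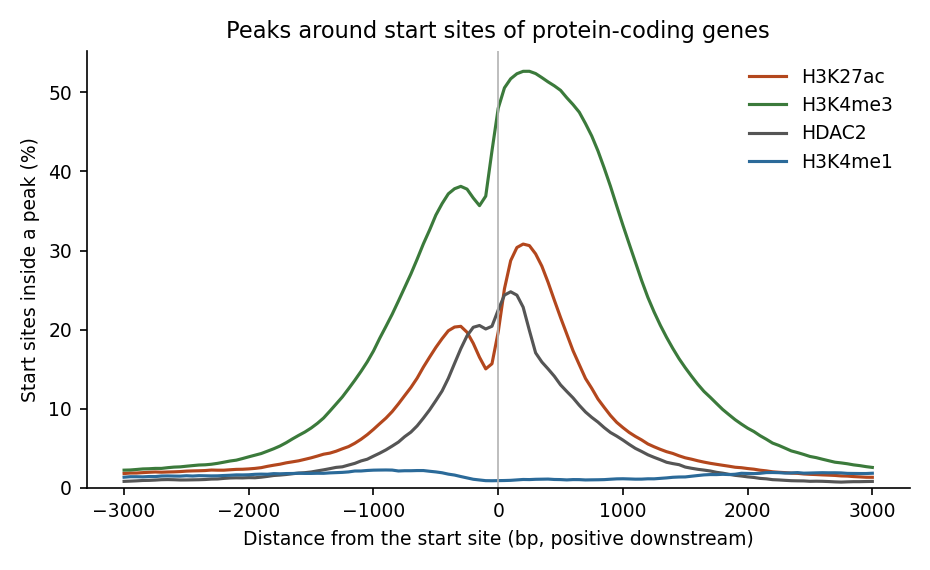
The share of 22054 start sites (vertical axis, %) that lay inside a peak of H3K27ac, H3K4me3, HDAC2 or H3K4me1 at each distance from the start (horizontal axis, bp, positive downstream, steps of 50 bp). H3K27ac was highest at 200 bp downstream (30.8%) and had a dip just upstream of the start between its maxima, H3K4me3 was highest at 250 bp downstream (52.7%), HDAC2 at 100 bp downstream (24.8%), and H3K4me1 stayed at or under 2.26%.

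Methylation of H3K4 divided the locations. H3K4me3 overlapped 92.0% of gene-end peaks (8032, interval 91.4 to 92.6%) and 19.0% of distal peaks (2426, interval 18.3 to 19.7%). H3K4me1 overlapped 7.70% of gene-end peaks (672) and 57.3% of distal peaks (7322, interval 56.5 to 58.2%). Of the 2426 distal peaks with H3K4me3, 58.4% lay near an alternative start or the end of a non-coding gene, against 9.88% of the 10345 distal peaks without H3K4me3. Read from the other lists, 56.6% of the 16089 H3K4me3 peaks and 27.4% of the 31247 H3K4me1 peaks overlapped H3K27ac.

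Counted over the whole peak, those with both methylation marks had the highest median height and width at either location. At gene ends, 254 peaks with both marks had a median of 11.8-fold and 1914.5 bp, and the 7778 with H3K4me3 only had 8.66-fold and 583 bp. The 418 gene-end peaks with H3K4me1 only had a median of 7.08-fold and 736.5 bp, and the 279 with neither had 6.50-fold and 377 bp. Among distal peaks, 371 with both marks had a median of 9.34-fold and 1490 bp, and 2055 with H3K4me3 only had 7.94-fold and 594 bp. The 6951 distal peaks with H3K4me1 only, the usual enhancer pattern, had a median of 6.83-fold and 694 bp, and the 3394 with neither had 6.38-fold and 451 bp. A wider peak meets more peaks of any list. Counted within 250 bp of the summit, both marks met 83 gene-end peaks, with a median of 7.65-fold (interval 6.91 to 9.02), against 8.71-fold with H3K4me3 only (interval 8.62 to 8.82). In that window the distal median was 7.20-fold with both marks (149 peaks, interval 6.70 to 7.94) and 8.09-fold with H3K4me3 only (interval 7.92 to 8.31). The order by height thus held only for whole peaks, while H3K4me3 only stood above H3K4me1 only and neither mark in both counts, at either location. Median width at gene ends in that window was 708 bp with both marks (interval 621 to 878) and 725 bp with H3K4me1 only (interval 642 to 777). Distal widths were 755 bp with both marks and 658 bp with H3K4me1 only.

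**Figure D2:**
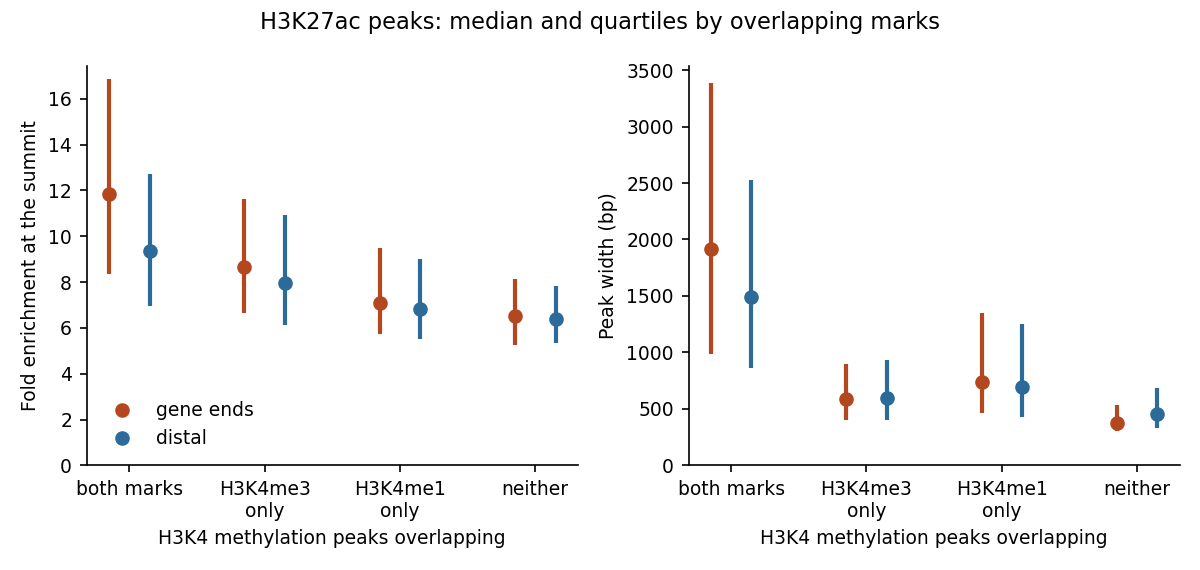
Median (points) and quartiles (lines) of fold enrichment at the summit (left, fold) and of peak width (right, bp) for H3K27ac peaks with both H3K4 methylation marks, H3K4me3 only, H3K4me1 only or neither, at gene ends (orange) and distal (blue). Overlap was counted over the whole peak, and peaks with both marks had the highest medians (11.8-fold and 1914.5 bp at gene ends, 9.34-fold and 1490 bp distal). Within 250 bp of the summit this was not so for height at either location, nor for width at gene ends.

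No H3K27ac peak overlapped H3K27me3. The count was 0 of 21500 H3K27ac peaks, which allows a share of up to 0.0140% by a limit of 3 counts and 0.0179% by the Wilson interval, and 0 of the 3420 H3K27me3 peaks. The H3K27me3 list did meet other lists: 315 of its peaks (9.21%) overlapped H3K4me3, 104 (3.04%) HDAC2, 17 MTA2, 14 RBBP4, 10 CHD4, 10 H3K4me1 and 0 FLI1. The closest approach was a gap of 751 bp at SYMPK, which encodes the polyadenylation scaffold symplekin, followed by 863 bp at RPL38, a ribosomal protein gene, 922 bp at NDRG1, a stress-induced gene, and 941 bp at ATP8A1, a phospholipid flippase gene. These 4 peaks at gene ends were the closest, and no distal peak came within 1 kb. Within 10 kb of H3K27me3 there were 50 gene-end peaks (0.573%) and 29 distal peaks (0.227%). Per gene, 474 protein-coding genes had H3K27me3 at an end and 15 of these also had H3K27ac at an end, on separate peaks. The H3K27ac list skips 196 peak numbers, and whether the peaks missing from it touched H3K27me3 was not tested.

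Peaks of NuRD subunits overlapped many H3K27ac peaks, and the shares differed between the 2 locations. Any of the 4 subunits overlapped 71.8% of gene-end peaks (interval 70.8 to 72.7%) and 55.7% of distal peaks (interval 54.8 to 56.5%). HDAC2, the deacetylase, overlapped 61.7% of gene-end peaks and 41.4% of distal peaks. CHD4, the ATPase, overlapped 15.6% of gene-end peaks and 35.6% of distal peaks. MTA2, a scaffold subunit, overlapped 33.2% of gene-end peaks and 35.7% of distal peaks, and RBBP4, a histone-binding subunit also found in other complexes, overlapped 33.4% of gene-end peaks and 27.7% of distal peaks. All 4 subunits met 773 gene-end peaks (8.86%) and 2214 distal peaks (17.3%). When the subunit's summit had to lie inside the H3K27ac peak, the share with any subunit was 50.3% at gene ends and 34.8% at distal peaks. With 50% of either peak covered, it was 58.4% at gene ends and 39.2% at distal peaks.

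Counted over the whole peak, those with more subunits had higher medians of height and width at both locations, and a wider peak meets more subunit peaks. With all 4 subunits the median was 10.5-fold and 1132 bp at gene ends, against 7.80-fold and 476 bp with none. With all 4 subunits the distal median was 9.39-fold and 1332.5 bp, against 6.19-fold and 446 bp with none. The steps between ran in order: gene-end medians were 8.23-, 8.89- and 9.44-fold with 1, 2 and 3 subunits, and distal medians 6.91-, 7.48- and 7.85-fold. Counted within 250 bp of the summit, the order by height was lost at gene ends, with 8.52-fold for all 4 subunits and 8.36-fold for none. It remained at distal peaks but was smaller, with 8.02-fold for all 4 subunits (interval 7.79 to 8.26) and 6.39-fold for none (interval 6.33 to 6.46).

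FLI1 peaks were few under gene-end acetylation and more frequent under distal acetylation. FLI1 overlapped 116 gene-end peaks (1.33%, interval 1.11 to 1.59%) and 787 distal peaks (6.16%, interval 5.76 to 6.59%). Distal peaks with FLI1 had a median of 11.9-fold (interval 11.5 to 12.2) and 1871 bp, and distal peaks without it 6.72-fold (interval 6.66 to 6.76) and 570 bp. Gene-end peaks with FLI1 had a median of 11.6-fold and gene-end peaks without it 8.51-fold. Counted within 250 bp of the summit, the distal median was 8.71-fold with FLI1 (interval 8.20 to 9.20) and 6.83-fold without (interval 6.77 to 6.87). At gene ends it was 9.77-fold with FLI1 (interval 8.20 to 11.3) and 8.53-fold without (interval 8.44 to 8.64), and these intervals overlapped. The share depended on how overlap was counted. Within 250 bp of the H3K27ac summit it was 1.02% at gene ends and 2.69% at distal peaks. With the FLI1 summit required inside the peak it was 0.802% at gene ends and 2.00% at distal peaks, and with H3K27ac peaks merged within 1 kb it was 2.15% at gene ends and 9.80% at distal peaks. Counting only FLI1 peaks whose −log10 p reached 15, FLI1 met 0.481% of gene-end peaks and 5.29% of distal peaks. Of the 1561 FLI1 peaks, 770 (49.3%) overlapped H3K27ac.

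Around the distal summits, the factors and the methylation marks were arranged differently. FLI1 covered 0.0783% of distal summits themselves and was most frequent 500 bp away, at 3.48%. MTA2 covered 7.55% of distal summits and reached 17% at 350 bp, and RBBP4 covered 5.79% and reached 12.49% at 350 bp. CHD4 went only a little higher beside the summit, with 14.9% at the summit and 17.6% at 300 bp, and so did HDAC2, with 19.0% at the summit and 21.2% at 300 bp. H3K4me1 (45.5%) and H3K4me3 (17.9%) were most frequent at the distal summit itself. At gene ends HDAC2 was most frequent at the summit, at 44.7%, while MTA2 had 9.23% at the summit and 16.1% at 300 bp.

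**Figure D3:**
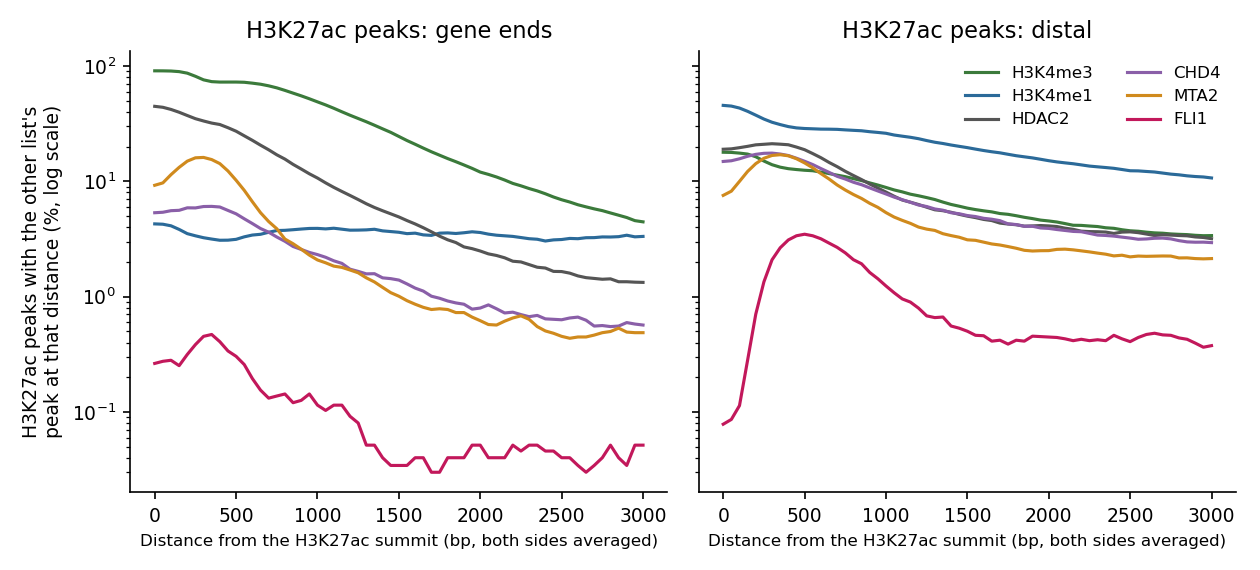
The share of H3K27ac peaks (vertical axis, %, log scale) with a peak of the other list at each distance from the H3K27ac summit (horizontal axis, bp, both sides averaged, steps of 50 bp), for 8729 gene-end peaks (left) and 12771 distal peaks (right). In the distal panel FLI1 was lowest at the summit (0.0783%) and highest at 500 bp (3.48%), MTA2 was highest at 350 bp (17%), and H3K4me1 was highest at the summit (45.5%).

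Acetylated regions that met no other list were mostly distal and low. They numbered 166 at gene ends (1.902%) and 2119 distal (16.6%, interval 16.0 to 17.2%). Their median height was 6.45-fold at gene ends and 6.13-fold at distal peaks, and their median width 359 bp at gene ends and 407 bp at distal peaks. Distal peaks were divided by height into 5 equal groups. The share meeting no other list was 22.4% in the lowest group, 23.5% in the next and 4.23% in the highest. Median width was 413 bp in the lowest group and 1409 bp in the highest, and a wider peak meets more lists. The share meeting no other list was not counted within 250 bp of the summit. The share of distal peaks with H3K4me3 was 11.0% in the lowest group and 32.3% in the highest. Within 250 bp of the summit it was 11.2% in the lowest group and 31.2% in the highest. The share with H3K4me1 was 58.3% in the lowest group and 60.3% in the highest. Within 250 bp of the summit it was 57.9% in the lowest group and 50.8% in the highest, so its course with height turned with the window. At gene ends the share with H3K4me3 was 85.0% in the lowest group and 97.0% in the highest.

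The tallest gene-end peaks lay at genes of varied function. The tallest of all, at 35.3-fold and 698 bp, lay at USP22 (chr17:21042377-21043074), which encodes the deubiquitinase of the SAGA coactivator complex. RCOR1, encoding the CoREST scaffold of a histone demethylase and deacetylase complex, had 32.5-fold, and PCGF3, a subunit of a variant Polycomb repressive complex 1, had 32.3-fold. CEBPG, a bZIP transcription factor gene, had 31.2-fold and the highest −log10 p of the list (197). The peak at 30.7-fold lay where IL4I1, NUP62 and ATF5 overlap, so it cannot be given to a single gene of these. TPI1, a glycolytic enzyme gene, had 30.3-fold, ZC3H4, a zinc finger protein gene, 29.8-fold, and VAX1, a homeobox gene of the forebrain and eye, 29.7-fold. All of the 10 tallest gene-end peaks overlapped H3K4me3, as did 92.0% of all gene-end peaks. At least 1 NuRD subunit overlapped 7 of the 10, near the 71.8% of all gene-end peaks. VAX1 stood apart among the 10 in width, with 6078 bp. It was the one with H3K4me1, which overlapped 7.70% of all gene-end peaks.

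The tallest distal peaks were of mixed kinds. The tallest, at 32.5-fold, lay inside EBF3, a developmental transcription factor gene, 4.62 kb from its nearest end (chr10:129958192-129960578). Peaks at 32.2-fold and 27.6-fold on chromosome 1 lay at the small nuclear RNA genes RNVU1-28 and RNVU1-18. U1 genes have many near-identical copies, so the placing of reads at this pair is uncertain. EPC1, encoding a subunit of the NuA4 acetyltransferase complex, held 30.9-fold at an alternative start, and LOC124905135 held 29.6-fold. Further peaks of this group lay 3.64 kb from ARHGAP23 (29.0-fold), inside the H3K4 methyltransferase gene SETD1B with RHOF as nearest end (28.8-fold), and inside GLG1, a Golgi protein gene (27.5-fold). The peaks nearest NKX2-2, a homeobox gene activated by EWSR1::FLI1, at 32.6 kb (27.3-fold) and nearest VAPA, an endoplasmic reticulum protein gene, at 102 kb (26.9-fold) both overlapped H3K4me1, all 4 NuRD subunits and FLI1. Of the 10, these were the ones with FLI1, which overlapped 6.16% of all distal peaks.

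The widest peaks were counted with many lists, as a wide peak meets more of them. At gene ends they were 12297 bp over RBM11 and LIPI (a lipase gene known as an Ewing sarcoma antigen), 12236 bp at RHOH, 11401 bp at NEUROD6, a neuronal transcription factor gene, 11358 bp nearest LCP1, an actin-bundling protein gene, and 11062 bp at CITED2, whose product binds CREBBP and EP300. Distal ones were 13591 bp nearest PRNP, 10569 bp nearest LRATD2, 10356 bp inside PDIA5, 9937 bp nearest LIFR and 9465 bp inside LINGO1. All 10 overlapped H3K4me1 and all 4 NuRD subunits, and FLI1 overlapped all of them except the one at CITED2. Over all 21500 peaks, H3K4me1 overlapped 37.2% and FLI1 4.20%. Heights of the widest peaks, from 7.74-fold near LRATD2 to 22.2-fold at RBM11 and LIPI, were below those of the tallest peaks.

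At the level of genes, 7861 of 20033 protein-coding genes (39.2%) had H3K27ac within 1 kb of an end, and 10064 (50.2%) had a distal peak within 100 kb of an end. By start sites, 6688 of 15841 genes (42.2%) had H3K27ac within 1 kb of a listed start. Nearly all acetylated genes had H3K4me3 at an end too (7618, against 243 without), while 3768 genes (18.8%) had H3K4me3 without H3K27ac and 8206 (41.0%) had none of H3K27ac, H3K4me3 and H3K27me3. The tallest peak at an end had a median of 9.44-fold over the 7861 genes. Gene lists are read below against these shares, and were written with earlier results of these data known, so they are descriptions.

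Genes reported as activated by EWSR1::FLI1 were mostly acetylated. An end peak was present at 34 of 42 (81.0%), against 39.2% of all genes. A distal peak within 100 kb was present at 37 (88.1%), against 50.2% of all genes. The median height was 13.4-fold, against 9.44-fold over all genes. The tallest were RCOR1 (32.5-fold), ID2, an inhibitor of bHLH factors (26.7-fold), LIPI and RBM11 under a shared peak (22.2-fold), and EZH2, the Polycomb methyltransferase (20.8-fold). Without an end peak were CD99, the surface marker used to diagnose Ewing sarcoma, CYP4F22, FATE1, GSTM4, LOXHD1, NPY, NPY1R and PTGER4, of which NPY1R had H3K27ac at an alternative start. CD99 had 7 distal peaks within 100 kb and no H3K4me3 at an end. It lies in the sequence that chromosomes X and Y share, where the placing of reads is uncertain. A distal peak within 100 kb was also present for LOXHD1 and CYP4F22 (4 each), FATE1 and NPY1R (2 each) and GSTM4 (1), and for neither NPY nor PTGER4.

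The core list of Ewing cells, transcription factor genes with the fusion partner EWSR1, followed closely. An end peak was present at 11 of 15 (73.3%), with a median of 14.8-fold, against 39.2% and 9.44-fold over all genes. BCL11B, SOX6, NKX2-2 and HOXD13 also stand in the activated list, so these lists are not independent. EWSR1, whose promoter drives the fusion, had 23.6-fold over 2668 bp, MEIS1, a homeobox gene, 21.4-fold over 7153 bp, BCL11B 19.4-fold, SOX6 17.02-fold and ZEB2 14.9-fold. KLF15 had 14.0-fold over 8611 bp with 18 distal peaks within 100 kb, and NKX2-2 had 12.7-fold over 8766 bp. FLI1, EGR2, OTX2 and TCF4 had no peak at an annotated end. FLI1 itself had none within 100 kb either, nor H3K4me3 at an end. TCF4 had H3K27ac at an alternative start, and OTX2 had 4 distal peaks within 100 kb.

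Genes reported as repressed by EWSR1::FLI1 were mostly without an end peak. An end peak was present at 7 of 24 (29.2%), against 39.2% of all genes, with a median of 10.6-fold, against 9.44-fold over all genes. By −log10 p the median was 34.8, against 40.0 over all genes, so the list changed sides with the measure of height. H3K4me3 was present at an end of 16 of 24, and at an end of 11386 of all 20033 protein-coding genes. The acetylated ones included NR2F2, a nuclear receptor gene (18.5-fold), ZYX, a focal adhesion gene (12.9-fold), IER3 (10.9-fold), FOXO1 (10.6-fold) and CCN1 (8.43-fold). CCN2, CDKN1A, COL1A1, COL1A2 and COL5A1 were among the 17 without an end peak. PHLDA1, ITGA11 and FBN1 had H3K27me3 at an end and no H3K27ac there. A distal peak within 100 kb was present for 15 of 24 (62.5%), against 50.2% of all genes.

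Markers of other cell types had few end peaks. They were present at 6 of 24 neural genes, with ENO2 the tallest at 9.71-fold and NGFR at 9.04-fold, 3 of 18 blood genes (CD68, PTPRC and CD4), 3 of 16 epithelial genes (KRT8 and KRT18 under a shared peak of 8.18-fold, and MUC1), 2 of 8 melanocyte genes (PMEL and DCT), 2 of 10 hepatocyte genes (TF and APOA1), 0 of 16 muscle genes, 0 of 10 endothelial genes and 0 of 14 olfactory receptor genes. An end peak need not lie at a start. ENO2, CD68, PTPRC and KRT8, and the neural gene L1CAM, had no H3K27ac within 1 kb of a listed start. For NGFR, CD4, KRT18, PMEL and APOA1 no start was listed. Mesenchymal genes stood nearer to all genes, with 9 of 20 (45.0%), against 39.2% of all genes. These included CDH11 (23.3-fold), ACTA2 (17.7-fold), FN1 (13.8-fold), VIM (12.8-fold) and TWIST1 (11.8-fold), and not CDH2, DCN, FAP, LUM and MMP2. A distal peak within 100 kb was present for 12 of 16 epithelial genes (median number 1.5), 8 of 16 muscle genes (median 0.5) and 4 of 10 endothelial genes (median 0), against 50.2% of all genes (median 1). It was present for 13 of 24 neural, 10 of 18 blood, 9 of 20 mesenchymal, 3 of 8 melanocyte, 0 of 10 hepatocyte and 2 of 14 olfactory receptor genes. Some members had many more, and not all of them are named here. TP63, an epithelial transcription factor gene, had no end peak and 20 distal peaks within 100 kb, CDH5, an endothelial cadherin gene, had 8, and PAX7, a muscle stem cell factor gene with H3K27me3 at an end, had 9. TP63, CDH5 and PAX7 were named here after their values were seen.

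**Figure D4:**
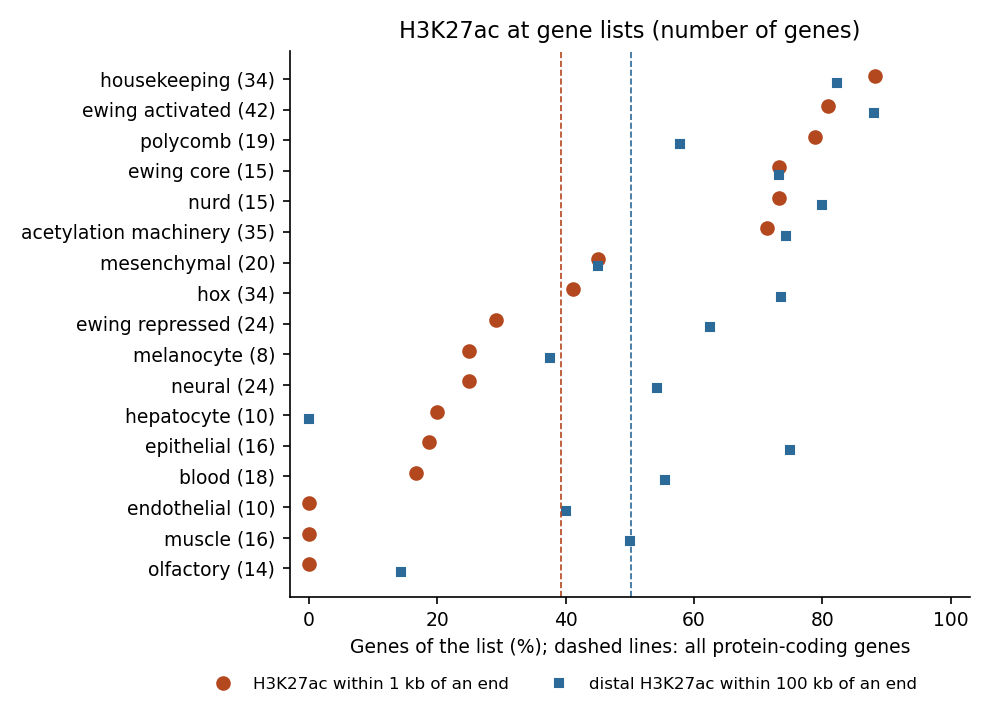
The share of each gene list (horizontal axis, %, number of genes in brackets) with an H3K27ac peak within 1 kb of an end (circles) and with a distal peak within 100 kb of an end (squares), with dashed lines at the shares of all 20033 protein-coding genes (39.2% at ends, 50.2% distal). Housekeeping genes and genes activated by the fusion were highest at ends (88.2% for housekeeping, 81.0% for activated), and muscle, endothelial and olfactory genes were at 0.

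Housekeeping genes were the most complete list, at 30 of 34 (88.2%), with a median of 11.3-fold, against 39.2% and 9.44-fold over all genes. PPIA had 26.8-fold, UBB 23.3-fold, ACTB 22.99-fold, YWHAZ 19.2-fold and RPL13A 18.2-fold, while TBP was the lowest of those present with 5.46-fold. CHMP2A, EMC7 and GPI were among the 4 with no peak at an annotated end. GPI had one at an alternative start and EMC7 had H3K4me3 without H3K27ac. CHMP2A had neither H3K27ac nor H3K4me3 at an annotated end.

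Genes of the enzymes and readers of acetylation were listed together with the Mediator genes MED1, MED12 and MED24. An end peak was present at 25 of 35 (71.4%), with a median of 11.1-fold and a median width of 509 bp. Over all genes the share was 39.2% and the median 9.44-fold. EP300, an acetyltransferase gene, had 20.3-fold, BRD2, a bromodomain reader gene, 19.6-fold, HDAC8 16.5-fold, KAT7 15.9-fold and HDAC4 15.9-fold. BRD3, HDAC11, HDAC9, KAT2B and KAT8 were among the 10 without one, BRD3 with H3K27me3 at an end. BRD3 and HDAC9 had H3K27ac at an alternative start. NuRD genes had an end peak at 11 of 15 (73.3%, median 14.3-fold), against 39.2% of all genes (median 9.44-fold). The tallest were at MBD3 (24.99-fold), RBBP7 (17.2-fold), HDAC2 (15.5-fold), RBBP4 (15.0-fold) and CHD4 (14.7-fold). CDK2AP1, CHD5, MBD2 and MTA3 lacked an end peak, MTA3 with H3K27ac at an alternative start. All 15 NuRD genes had H3K4me3 at an end, as did 11386 of all 20033 protein-coding genes. Polycomb genes, listed with the H3K27 demethylase genes KDM6A and KDM6B, had an end peak at 15 of 19 (78.9%, median 13.6-fold). Over all genes the share was 39.2% and the median 9.44-fold. CBX2 (24.7-fold), EZH2 (20.8-fold), KDM6A (20.1-fold), PHF1 (15.4-fold) and SUZ12 (15.0-fold) were the tallest. CBX7, KDM6B, PCGF2 and PHF19 had none at an annotated end. KDM6B and PCGF2 had H3K27ac at an alternative start.

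The HOX genes as a whole stood near all genes. An end peak was present at 14 of 34 genes listed (41.2%, against 39.2% of all genes), with a median of 8.10-fold. By cluster it was 1 of 9 HOXA genes, 2 of 7 HOXB genes, 7 of 9 HOXC genes and 4 of 9 HOXD genes, with no test between them. HOXD8 had 24.2-fold, HOXB13 18.6-fold over 6356 bp, HOXB7 17.1-fold, HOXD11 15.1-fold and HOXC11 11.9-fold, and HOXD13 had 7.63-fold. Of the HOXA genes listed, HOXA10 alone had an end peak (6.58-fold), and HOXA3, HOXA5 and HOXA7 had H3K27me3 at an end. Of the HOXA genes without a peak, HOXA11, HOXA13, HOXA2 and HOXA3 also had no distal peak within 100 kb. HOXC4, HOXC5 and HOXC6 shared a peak of 8.06-fold, which cannot be given to a single gene and is counted for each.

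Distal peaks were unevenly shared among their nearest genes. A gene beside a long stretch without coding genes can be nearest to more peaks, and nearness does not assign a peak to a gene. Of 4320 genes that were nearest to at least 1 distal peak, the median gene had 2, and 195 genes with 10 or more held 22.8% of all distal peaks. HDAC9, a class IIa deacetylase gene, was nearest to 44, all inside its own 916 kb, of which 1 lay near an alternative start, and had no peak at an annotated end. JARID2, an accessory factor of Polycomb repressive complex 2, had 36, of which 9 were inside it, and PKHD1, the gene of fibrocystin, had 36, of which 23 were inside it. LRATD2 had 35, PREX1, a Rac exchange factor gene, 33, CITED2 32, GSDMC, a gasdermin gene, 30, STARD13 29, and LY86 and SIRPA, genes of immune surface proteins, 28 each. Of these, 27 lay inside STARD13, 19 inside PREX1, 3 inside GSDMC, 2 inside SIRPA, 1 inside LY86 and 0 inside LRATD2 and CITED2. The longer gap to a neighbouring coding gene was 2311 kb at CITED2, 1962 kb at GSDMC, 1114 kb at LRATD2, 1109 kb at JARID2 and 838 kb at PREX1. It was 768 kb at PKHD1, 453 kb at LY86, 208 kb at SIRPA, 141 kb at STARD13 and 111 kb at HDAC9. Heights differed between these sets, with a median of 6.89-fold near LY86 and 6.63-fold near STARD13, against 3.88-fold near LRATD2 and 3.54-fold near GSDMC, which both lie on chromosome 8. Peaks at HDAC9 had a median of 5.42-fold and a highest of 13.9-fold.

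Over the genome the peaks formed dense groups. Joined across gaps of up to just over 12 kb they made 11249 groups, of which 6113 were single peaks, and 44.1% of peaks stood in groups of 3 or more. The median gap to the next peak was 16.0 kb, and 32.9% of gaps were under 1 kb. The group with most peaks, 22 over 71.2 kb, covered SRP14, a signal recognition particle gene, and BMF, an apoptosis gene, on chromosome 15. Next came 21 peaks over 73.3 kb at one end of PKHD1 and 20 over 70.9 kb across 8 KRTAP4 keratin-associated protein genes, whose near-identical copies make the placing of reads uncertain. A group of 19 peaks covered the histone genes H2BC4, H2AC6, H1-4 and H2BC5, and 17 lay at UNC5B, a netrin receptor gene. Another group of 17, over 55.8 kb of chromosome 8, covered no coding gene, and its highest peak had 7.74-fold. These groups were named after their values were seen.

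Promoter sequence moved with acetylation. The 250 bases before the start overlapped H3K27ac at 5796 of 22054 start sites (26.3%, interval 25.7 to 26.9%). Windows that were CpG-rich (GC content of at least 50% and an observed over expected CpG ratio of at least 0.6) were under H3K27ac in 38.1% of 12642 cases (interval 37.3 to 39.0%), against 10.4% of the 9412 CpG-poor ones (interval 9.80 to 11.0%). By CpG ratio the share was 3.89% under 0.2, 7.38% from 0.2 to 0.4, 17.3% from 0.4 to 0.6, 30.2% from 0.6 to 0.8, 40.3% from 0.8 to 1 and 46.7% above. With the H3K27ac summit required inside the window the shares were much smaller, 7.53% of CpG-rich and 2.28% of CpG-poor windows, and by CpG ratio 0.685, 0.838, 4.10, 6.71, 8.402 and 7.70%, so that the last class was no longer the highest. H3K4me3 overlap ran in the same order, from 3.83% of windows in the lowest class to 82.4% in the highest. Windows with H3K4me3 and no H3K27ac had nearly the same composition as those under H3K27ac: the median GC content was 66.4% under H3K27ac and 66.0% with H3K4me3 alone, and the median CpG ratio 0.853 under H3K27ac and 0.829 with H3K4me3 alone.

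**Figure D5:**
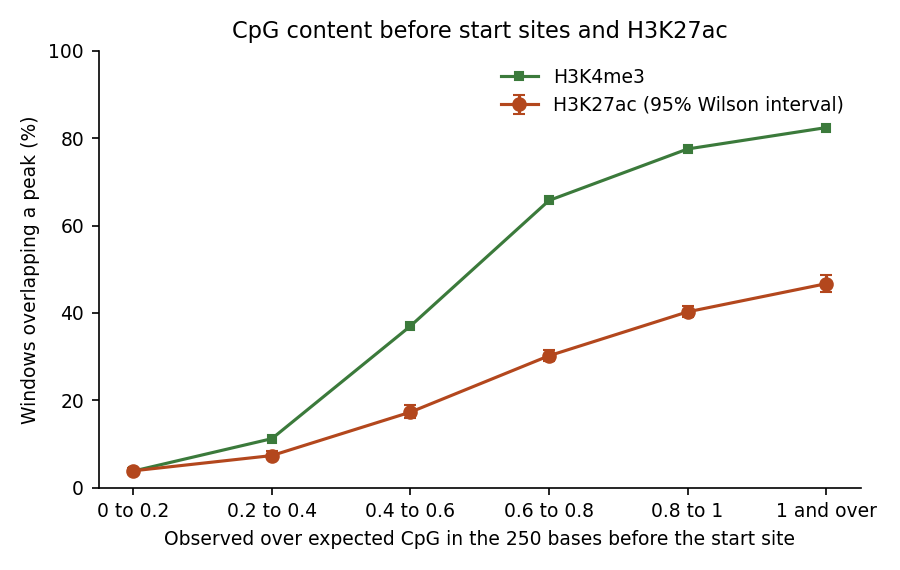
The share of the 250-base windows before 22054 start sites (vertical axis, %) that overlapped an H3K27ac peak (circles, with 95% Wilson intervals) or an H3K4me3 peak (squares), in 6 classes of observed over expected CpG (horizontal axis). H3K27ac stood at 3.89% in the lowest class and 46.7% in the highest, and H3K4me3 at 3.83% in the lowest and 82.4% in the highest.

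Letters of known motifs followed this composition in part. The ETS letters CCGGAAG stood in 17.7% of windows under H3K27ac and 8.11% of windows not under it, and in 10.6% of all windows. Within CpG-rich windows they stood in 19.8% of those under H3K27ac and 13.2% of those not under it, and within CpG-poor windows in 7.46% of those under H3K27ac and 3.43% of those not under it. The GC box GGGCGG stood in 68.4% of windows under H3K27ac and 48.5% of those not under it (53.7% of all), but within CpG-rich windows in 75.6% of those under H3K27ac and 78.6% of those not under it, and within CpG-poor windows in 32.6% of those under H3K27ac and 20.6% of those not under it. NRF1 letters stood in 11.0% under H3K27ac and 4.93% not under it (6.52% of all), and within CpG-rich windows in 12.9% under H3K27ac and 9.50% not under it. TGACGTCA stood in 2.92% under H3K27ac and 1.68% not under it (2.00% of all). CCAAT stood in 28.6% under H3K27ac and 34.2% not under it (32.7% of all), and TATAAA in 4.74% under H3K27ac and 10.6% not under it (9.03% of all). Among CpG-rich windows, where the RCOR1, PCGF3, CEBPG and VAX1 sequences above belong, TATAAA stood in 3.07% under H3K27ac and 3.51% not under it. The letters GGAA 3 times in a row stood in 15 windows of all 22054.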

How the data were processed

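ChIP-seq peak lists of SK-N-MC cells were used, 1 for each of 9 targets. The 2 inputs, without a list, were not used here. The target in the labels gave the group. Per the submitters' processing notes, the build was GRCh38 and the tools were bedtools 2.27.1, deepTools 3.2.1, SAMtools 1.9, BWA 0.7.17, Trimmomatic 0.36 and FastQC 0.11.7. MACS2 appears in the deposited peak names. The sources used here do not give its version, the control, any pooling or any excluded regions. The deposited fold enrichment of each peak, a ratio at its summit, and its −log10 p are the authors' values, and served only to describe, rank and filter peaks within a list. The lowest −log10 p of the H3K27ac list was 9.02. Depth is unknown.

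Positions were made 1-based. Lists overlapped when peaks shared at least 1 bp. Genes, and the start sites and sequences of 15841 protein-coding genes, came from RefSeq tables (GRCh38.p14). The gene table gives no strand, so both ends of a gene were used, and none of the listed starts is on chromosome 8. The 13 peaks off assembled chromosomes counted as distal. All 354 entries of the 17 gene lists matched, 1 through a synonym. Of the entries 345 were unique, as some genes stand in more than 1 list. Interval code was tested on simulated data. Python 3.11.15, numpy 2.4.6, pandas 2.3.3, scipy 1.17.1 and matplotlib 3.10.9 were used.

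The members, gene lists and alternatives were chosen with earlier results of these data known. Named were, by rule, the 10 tallest peaks and 5 widest peaks per location with 1 peak per nearest gene, the 10 genes nearest to most distal peaks, and per list up to 5 members with the tallest end peak and up to 5 without one in alphabetical order. Other genes, among them those nearest to H3K27me3, were named after their values were seen. Some genes that the rule names are not reported here. The alternatives were stricter lists, merged peaks, other overlap rules, other windows around genes, other joining distances and leaving out chromosome 8.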

Additional observations from a re-analysis of the deposited data

How the results depend on the processing

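Of 90 recomputed values, 31 stayed within the 95% interval of the value reported, or for the gene lists within 1.5 times, and 59 moved out of it. With H3K27ac peaks whose −log10 p reached 15, 45.2% lay at gene ends and 37.8% of genes had an end peak. Gene-end peaks then had a median of 8.83-fold and 617 bp, with H3K4me3 at 93.2%, H3K4me1 at 7.11% and any NuRD subunit at 73.0%, and distal peaks 7.64-fold and 727 bp, with H3K4me3 at 21.9%, H3K4me1 at 58.4%, any subunit at 63.9% and FLI1 at 7.88%. With peaks merged within 1 kb, 45.8% lay at gene ends. Gene-end peaks then had 9.35-fold, 926 bp, H3K4me3 at 94.9%, H3K4me1 at 10.0%, any subunit at 77.2% and FLI1 at 2.15%, and distal peaks 7.36-fold, 949 bp, 21.4%, 64.0%, 64.8% and 9.80% for the same quantities. With the other list's summit inside the peak, gene ends had H3K4me3 at 68.9%, H3K4me1 at 6.23%, any subunit at 50.3% and FLI1 at 0.802%, and distal peaks 14.1%, 43.8%, 34.8% and 2.00%. With 50% of either peak covered, gene ends had H3K4me1 at 6.76%, any subunit at 58.4% and FLI1 at 0.779%, and distal peaks 53.8%, 39.2% and 2.05%. With the other lists held to a −log10 p of 15 or more, gene ends had H3K4me1 at 6.46%, any subunit at 62.6% and FLI1 at 0.481%, and distal peaks 48.0%, 49.0% and 5.29%. Within 250 bp of the summit, an alternative chosen after seeing the data, gene ends had H3K4me1 at 5.73% and FLI1 at 1.02%, and distal peaks H3K4me1 at 53.5%, any subunit at 53.6% and FLI1 at 2.69%. That window, likewise chosen after seeing the data for the medians by marks, ended the highest place by height of peaks with both methylation marks at either location. At gene ends it also ended their highest place by width, and the order of height by number of subunits. A 2.5 kb window put 45.4% of peaks at gene ends and H3K27ac at 41.7% of genes, all 59675 genes gave 48.1% of peaks and 18.6% of genes, and start sites alone 37.3% of peaks and 42.2% of genes. Joining within 5 kb left 33.6% of peaks in groups of 3 or more, and 7.53% of CpG-rich windows held a summit. Leaving out chromosome 8 moved none of its 15 values, and H3K27me3 stayed at 0 in all 7 alternatives run for it. With −log10 p as the height, the list of genes repressed by the fusion changed sides of the median of all genes, and 8 in place of 9 of 14 lists stood above it. The causes were not tested. No paired analysis was possible because each target had 1 list. Without read counts, a region without a peak may lack the mark or may lie below what the depth could show.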

Other observations

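Ends of non-coding genes also carried H3K27ac. A peak lay within 1 kb of an end of 97 of 443 tRNA genes (21.9%, interval 18.3 to 26.0%), 32 of 154 small nuclear RNA genes (20.8%, interval 15.1 to 27.9%), 2434 of 18303 long non-coding RNA genes (13.3%, interval 12.8 to 13.8%) and 191 of 15580 pseudogenes (1.23%), against 39.2% of protein-coding genes. A peak that was distal to every coding gene was present for 57 of the 97 tRNA genes and 22 of the 32 small nuclear RNA genes. It was present for 967 of the 2434 long non-coding RNA genes and 129 of the 191 pseudogenes. The others were counted only through a peak at an end of a coding gene. Copies of tRNA and small nuclear RNA genes are near-identical, which makes the placing of reads uncertain. Neighbouring genes often shared a peak, as 1915 of the 8729 gene-end peaks (21.9%) lay near ends of at least 2 protein-coding genes.

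Chromosomes differed in acetylation for their number of genes. Chromosome 13 had 1.73 H3K27ac peaks per protein-coding gene and chromosome 6 had 1.45, while chromosome X had 0.698 and chromosome 19 had 0.688. The share of genes with an end peak was 43.8% on chromosome 13, 45.6% on chromosome 6, 25.1% on chromosome X and 36.7% on chromosome 19. The densest window of 1 Mb was the histone gene cluster at 26 to 27 Mb of chromosome 6, with 65 peaks, 36 of them at gene ends, against a median of 6 over 2292 windows. The window at 81 to 82 Mb of chromosome 17, with ACTG1 and MAFG, held 60, and that at 41 to 42 Mb of chromosome 17, with keratin and KRTAP genes, held 56. Copy number of these regions was not measured here.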
